A study of Mus musculus with 4 samples.

Results

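Translation initiation and elongation factors were taken as the genes of the deposited table whose symbol begins with Eif or Eef followed by a digit. Genes with symbols beginning with Eif2ak, Eif4e or Eif4g and pseudogenes were left out. The rule gave 64 of 30282 genes. Of these, 55 had a mean of at least 10 normalised reads over the 4 libraries and were tested, and 9 had no more than 7 normalised reads in any library. The cells were mouse embryonic stem cells of the V6.5 line, grown with the inhibitors CHIR99021 and PD0325901, in which RPB3, a core subunit of RNA polymerase II, carried the mAID-GFP degron. Their poly(A) RNA had been sequenced in bulk, where fewer cells of a type and less RNA per cell cannot be told apart. The IAA group (2 libraries) received doxycycline at 1 µg/ml for 12 h, which induces the F-box protein TIR1, and then the auxin IAA at 500 µM for 12 h, which directs the tagged protein to degradation. The untreated group (2 libraries) carried the same degron and received doxycycline alone. Another sentence of the labels' treatment protocol speaks of depletion for 1 h, and the 12 h given with each sample was followed. Cells that received IAA but carry no degron were not analysed here, so effects of IAA itself and of RPB3 loss cannot be told apart. Separate cultures are not stated for the replicates, so p-values cover only the spread seen between these 4 libraries, and that spread may be technical.

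Initiation factors bring the initiator tRNA, the small ribosomal subunit and the mRNA together and select the start codon. Elongation factors deliver aminoacyl-tRNA to the ribosome and move it along the mRNA. In mammals the mRNAs of all eEF1 subunits, of eEF2 and of some initiation factors belong to the TOP class, which begin with a C followed by a run of pyrimidines and whose translation is controlled by growth signals. The same class holds the ribosomal protein mRNAs named in the title of the series.

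The 4 libraries held 8724737 to 9194432 reads. Values are normalised read counts, that is, reads divided by 1 factor per library and rounded, as deposited by the authors. Those factors place the median log2 fold change of all 14928 genes tested at -0.11. Median-of-ratios factors computed from the same reads place it at -0.01. Member calls, and counts of other gene lists, are therefore given at both scalings where they differ. The sign of the log2 fold change differs between them for Eif3a, Eif3j1, Eef1aknmt, Eif2d and Eif5b, none of which passed under median-of-ratios scaling. Polr2c, which encodes the targeted RPB3, had 3242 and 3158 normalised reads in IAA libraries and 2726 and 2885 in untreated libraries (log2 fold change 0.19, SE 0.04; limma adjusted p = 0.00116). This is an mRNA level and does not measure the degraded protein. The summed level of 8 stem cell markers, Pou5f1, Nanog and Sox2 among them, was 56078 and 53945 in IAA libraries and 51426 and 53210 in untreated libraries. Its members went both ways, with Klf4 (0.52), Nanog (0.33) and Tfcp2l1 (0.27) higher and Dppa5a (-0.36), Pou5f1 (-0.24) and Zfp42 (-0.15) lower, while Sox2 (0.09) and Esrrb (0.01) did not pass. Markers of fibroblast feeders had rows for 3 of 6 genes and summed to 117 and 133 in IAA libraries and to 190 and 242 in untreated libraries. Markers of differentiating cells (8 genes) summed to 301 and 317 in IAA libraries and to 294 and 302 in untreated libraries, with Foxa2 and Cdx2 at 0 or 1 in each library. The part of these cells in the results below was not tested.

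Many translation factor mRNAs were lower in IAA cells, all tested eEF1 genes and Eef2 among them, and few were higher. Of the 55 tested, 27 fell and 4 rose (limma, adjusted p under 0.05), together 56.4%, against 39.9% of all genes tested, of which 28.9% were lower and 11.1% higher. The members that fell were 49.1% of those tested and the members that rose 7.27%. Translation factors are abundant, and abundant genes were called more often. Among genes with a mean of at least 100, 54.0% of the 50 members fell and 8.0% rose, against 38.6% and 15.5% of all such genes. The median log2 fold change was -0.15 over the members and -0.11 over all genes tested. With median-of-ratios factors 18 members fell and 12 rose, against 37.2% of all genes called, 18.6% lower and 18.6% higher, and the median was -0.06 for the members and -0.01 for all genes. Those 18 are among the 27, and the 4 that rose are among the 12. Both IAA libraries lay below both untreated libraries for 31 members, against 45.6% of all genes, and above them for 8 members, against 22.5%. At an adjusted p under 0.05, the authors' deposited table has 16 members lower and 1 higher, against 9.27% of all genes called, 7.37% lower and 1.9% higher. That count uses its adjusted p alone. The column of calls in the authors' deposited table marks all 64 members as unchanged, and the 81 genes it marks as up or down each have a log2 fold change of at least 1.0 in size.

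**Figure D1:**
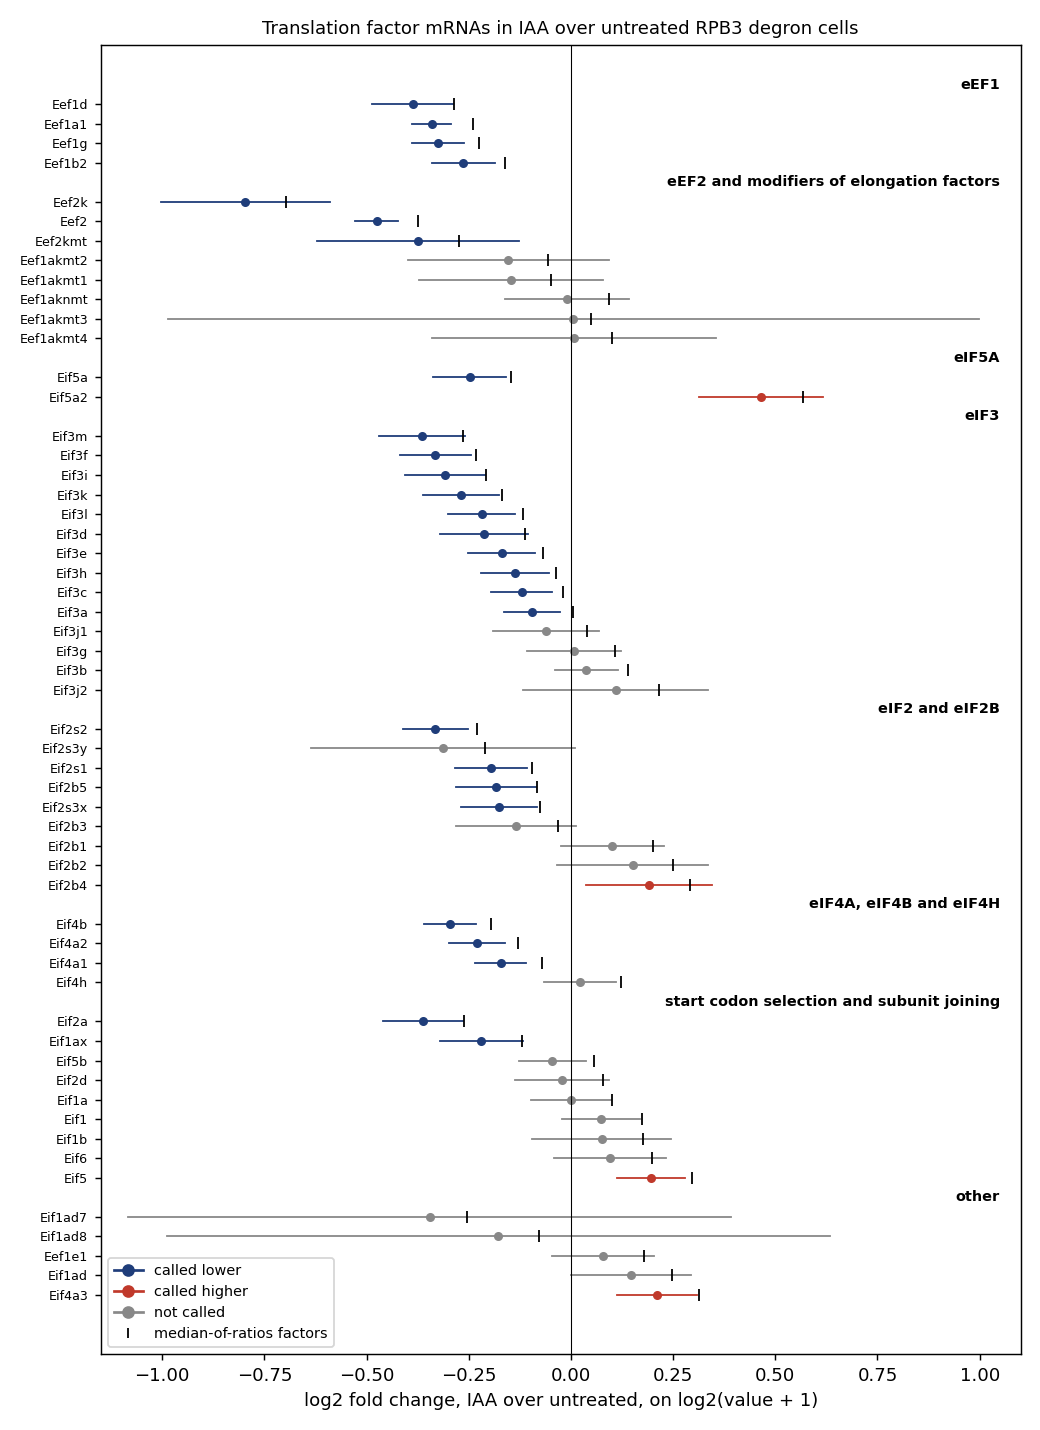
Log2 fold change of IAA over untreated cells (points, with 95% confidence intervals from limma) for the 55 translation factor mRNAs tested, ordered within each group, with the value at median-of-ratios factors as a tick. The members called lower (27) and called higher (4) at the deposited scaling are coloured, and every tick lies to the right of its point.

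All abundant elongation factor mRNAs fell, at both scalings. Eef1a1 encodes the GTPase that brings aminoacyl-tRNA to the ribosome and is the most abundant member per kb of exon. It had 43766 and 42552 normalised reads in IAA libraries and 54630 in each untreated library. Its mean was 43159 ± 858 in IAA cells and 54630 ± 0 in untreated cells (SD, n = 2 each), which is -0.34 on the log2 scale (SE 0.02; limma adjusted p = 1.42e-09). The groups did not overlap, and the IAA mean was 79.0% of the untreated mean. Eef1a1 lies on chromosome 9, 78478449 to 78489151 (GRCm38), and 26.6% of the 75-base stretches of its annotated transcripts also occur in transcripts of other genes, so its count may include reads of such copies. Its close relative Eef1a2, known from muscle and neurons, was nearly silent, with 5 and 1 normalised reads in IAA libraries and 7 and 2 in untreated libraries.

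The subunits that reload eEF1A with GTP moved with it. Eef1b2, the catalytic exchange subunit, had 4847 and 4646 normalised reads in IAA libraries and 5581 and 5810 in untreated libraries (log2 fold change -0.26, SE 0.04). Eef1d, the other exchange subunit, had 2060 and 1996 in IAA libraries and 2531 and 2780 in untreated libraries (-0.39, SE 0.05). Eef1g, the scaffold of the complex, had 8942 and 8888 in IAA libraries and 11090 and 11251 in untreated libraries (-0.33, SE 0.03). In each case both IAA libraries lay below both untreated libraries, and limma adjusted p ran from 7.12e-08 (Eef1g) to 1.15e-05 (Eef1b2). Of the Eef1g stretches of 75 bases, 38.0% occur in other annotated transcripts. The 4 tested eEF1 genes had a median of -0.33, or -0.23 under median-of-ratios scaling, where all 4 were lower too.

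Eef2, the translocase that moves the ribosome by a codon, had a larger fold change than each eEF1 gene, though its interval overlapped that of Eef1d (-0.49 to -0.29). It had 20962 and 20818 normalised reads in IAA libraries and 28941 and 29131 in untreated libraries, with means of 20890 ± 102 in IAA cells and 29036 ± 134 in untreated cells (SD, n = 2 each). The log2 fold change was -0.48 (SE 0.03; limma adjusted p = 7.18e-11), or -0.37 with median-of-ratios factors. Its 95% interval, -0.53 to -0.42, did not overlap that of Eef1a1, -0.39 to -0.29, and the difference itself was not tested. Together the 5 eEF1 genes and Eef2 took 0.859% and 0.854% of all reads in IAA libraries and 1.04% and 1.02% in untreated libraries. These shares do not depend on the deposited factors. The other 58 members together took 1.181% and 1.178% in IAA libraries, against 1.205% and 1.221% in untreated libraries.

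Among the enzymes that modify elongation factors, the kinase of eEF2 showed the widest change of all members tested. Eef2k, which phosphorylates eEF2 and so inhibits it, had 201 and 180 normalised reads in IAA libraries and 320 and 343 in untreated libraries. The log2 fold change was -0.80 (SE 0.10; limma adjusted p = 2.74e-06), or -0.70 with median-of-ratios factors, and the IAA mean was 57.5% of the untreated mean. Eef2kmt, which methylates a lysine of eEF2, had 161 and 142 in IAA libraries and 206 and 187 in untreated libraries (-0.37, SE 0.12; limma adjusted p = 0.0159). This call was not kept with median-of-ratios factors (limma adjusted p = 0.0771). On unrounded values it was not kept without IAA replicate 2 (limma adjusted p = 0.133) or untreated replicate 1 (limma adjusted p = 0.0995). The lysine methyltransferases of eEF1A did not pass. Their log2 fold changes were -0.15 for Eef1akmt1 (95% interval -0.37 to 0.08), -0.15 for Eef1akmt2 (-0.40 to 0.09), 0.01 for Eef1akmt4 (-0.34 to 0.36) and -0.01 for Eef1aknmt (-0.16 to 0.14), which had 0.09 under median-of-ratios scaling. Eef1akmt3 was read at 9 and 11 in IAA libraries and at 16 and 6 in untreated libraries, too low to show a change of this size. On unrounded values Eef1akmt2 reached a limma adjusted p of 0.0376 without untreated replicate 1 (-0.33).

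**Figure D2:**
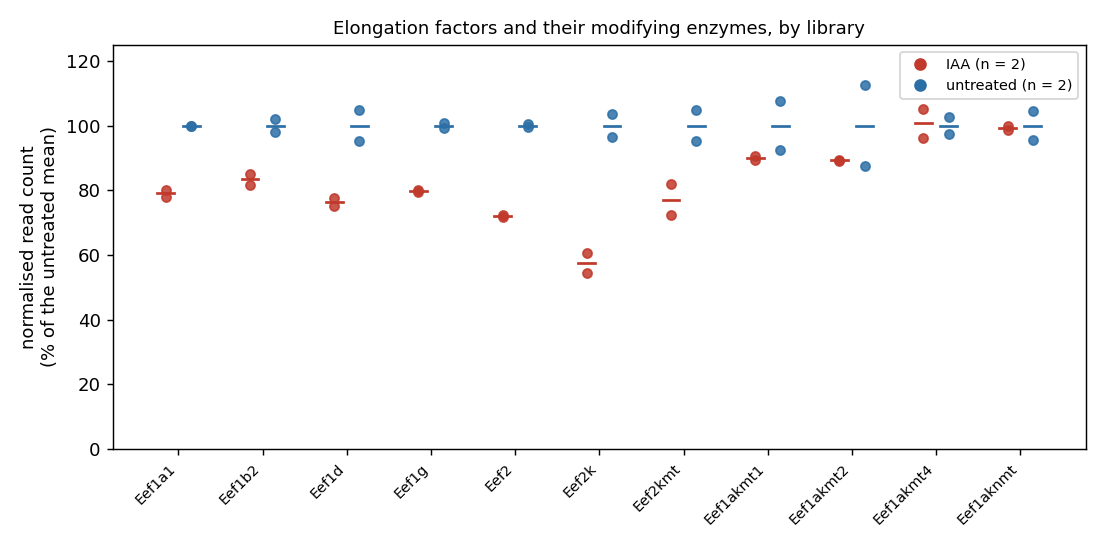
Normalised read counts of elongation factor genes and of the genes of their modifying enzymes in each library, as a percentage of the untreated mean of the gene (points, libraries; lines, means of 2). The IAA points of the 4 eEF1 genes tested and of Eef2 lie below the untreated points of the same gene, and Eef2k lies lowest, at 57.5%.

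The known TOP mRNAs among the members all fell at the deposited scaling. The list holds Eef1a1, Eef1b2, Eef1d, Eef1g, Eef2, Eif3a, Eif3e, Eif3f, Eif3h, Eif4b and Eif2s3x. All 11 were lower, with a median of -0.30, against 16 lower and 4 higher of the 44 other members tested, with a median of -0.09. Of all genes tested 28.9% were lower and 11.1% higher, and 38.6% of those with a mean of at least 100 were lower. Under median-of-ratios factors 7 of the 11 were lower and none was higher, against 18.6% of all genes each way. The median of the 11 was then -0.20. The other members then counted 11 lower and 12 higher, with a median of 0.01. The list was chosen with earlier results of these data known, and no test of it was made.

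The stretch around the annotated start was read for these genes because the TOP class is defined there. RefSeq promoter windows on GRCm38.p6 matched 44 of the 64 members by symbol. Eef1d, Eef1g, Eif3e and Eif3h were not among those matched. A C at the annotated start followed by pyrimidines, to a run of at least 5, was present in 2 members, Eif3f and Eif2s3x, which is 4.55% of the members matched, against 3.01% of 27025 genes with such a window. A run of at least 5 that begins with C within 20 bases of the start on either side was found in 20 members, or 45.5%, against 53.3% of all genes. Runs of at least 7 in the same window were found in 15 members, or 34.1%, against 24.0% of all genes, so the order of members and all genes turns with the length of run asked for. The sense strand alone was searched. In the lines that follow, each stretch runs from 30 bases before the annotated start to its base 30, 5′ to 3′, and capitals mark runs of at least 5 pyrimidines beginning with C within 20 bases of the start. Shown are the 7 known TOP mRNAs with a window, Eef1a1 to Eif4b, and the 4 members that rose, Eif5a2 to Eif2b4.
Eef1a1 (chr9:78481695-78481754, minus strand): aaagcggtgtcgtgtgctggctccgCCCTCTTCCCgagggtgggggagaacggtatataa
Eef1b2 (chr1:63176801-63176860, plus strand): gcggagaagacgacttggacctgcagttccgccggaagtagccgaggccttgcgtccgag
Eef2 (chr10:81176601-81176660, plus strand): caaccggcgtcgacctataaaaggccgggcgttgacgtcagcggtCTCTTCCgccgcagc
Eif3a (chr19:60790664-60790723, minus strand): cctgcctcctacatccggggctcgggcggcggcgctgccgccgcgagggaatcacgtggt
Eif3f (chr7:108934385-108934444, plus strand): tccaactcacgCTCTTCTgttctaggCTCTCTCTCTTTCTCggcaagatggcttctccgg
Eif2s3x (chrX:94212622-94212681, minus strand): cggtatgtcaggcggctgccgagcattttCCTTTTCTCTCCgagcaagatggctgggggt
Eif4b (chr15:102073743-102073802, plus strand): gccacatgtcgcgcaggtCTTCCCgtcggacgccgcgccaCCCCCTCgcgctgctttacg
Eif5a2 (chr3:28781247-28781306, plus strand): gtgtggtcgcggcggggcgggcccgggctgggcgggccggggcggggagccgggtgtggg
Eif5 (chr12:111538071-111538130, plus strand): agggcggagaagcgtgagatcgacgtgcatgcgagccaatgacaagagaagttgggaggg
Eif4a3 (chr11:119300014-119300073, minus strand): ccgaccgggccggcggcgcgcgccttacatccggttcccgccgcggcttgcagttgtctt
Eif2b4 (chr5:31193110-31193169, minus strand): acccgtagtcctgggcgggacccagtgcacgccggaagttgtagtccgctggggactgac
In Eif3f and Eif2s3x a C of the run stands at the annotated start itself, in Eef1a1 the run spans the start, and in Eef2 it lies after the start. No capital run lies in the stretches of the TOP mRNAs Eef1b2 and Eif3a or of the 4 members that rose. This says only that no such run begins within 20 bases of the annotated start, and the Eif3a stretch holds one farther out. An annotated start need not be the start used in these cells.

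The paralogues of eIF5A went in opposite directions at both scalings. eIF5A, the only protein known to carry hypusine, helps the ribosome past difficult peptide bonds such as those between prolines. Eif5a2 had 749 and 696 normalised reads in IAA libraries and 556 and 491 in untreated libraries, the largest rise among the members (log2 fold change 0.47, SE 0.07; limma adjusted p = 4.03e-05). Eif5a had 9247 and 8617 in IAA libraries and 10023 and 11208 in untreated libraries (-0.25, SE 0.04; limma adjusted p = 0.000108). In the authors' deposited table Eif5a had an adjusted p of 0.236, and Eif5a2 was the only member higher (adjusted p = 0.0184). Per kb of exon, Eif5a2 made up 3.69% and 3.68% of the pair in IAA libraries and 2.56% and 2.03% in untreated libraries. Thus Eif5a remained the main form in all 4 libraries. Of the enzymes that make hypusine, Dhps, deoxyhypusine synthase, had 266 and 273 normalised reads in IAA libraries and 366 and 378 in untreated libraries and fell (-0.46, SE 0.09; limma adjusted p = 0.000239). Dohh, the hydroxylase of the final step, did not pass (-0.05, SE 0.12).

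Of the other pairs of paralogues compared by share, Eif4a1 and Eif4a2 both fell. They encode alternative forms of the RNA helicase that unwinds leader sequences. Eif4a1 had 10487 and 10284 normalised reads in IAA libraries and 11551 and 11843 in untreated libraries (log2 fold change -0.17, SE 0.03). Eif4a2 had 6793 and 6574 in IAA libraries and 7894 and 7777 in untreated libraries (-0.23, SE 0.03), and both calls were kept with median-of-ratios factors. Eif4a2 made up 34.5% and 34.2% of this pair per kb in IAA libraries and 35.7% and 34.8% in untreated libraries. Eif2s3y, the Y-linked copy of the gamma subunit gene of eIF2, made up 3.14% and 3.33% of its pair with Eif2s3x in IAA libraries and 3.62% and 3.48% in untreated libraries. It had 79 and 80 normalised reads in IAA libraries and 99 in each untreated library, and did not pass (-0.31, 95% interval -0.64 to 0.01). Of the 75-base stretches, 34.2% of Eif2s3x and 25.4% of Eif4a1 occur in transcripts of other genes, so their counts may include such reads. Eif3j1 and Eif3j2 cannot be told apart well, since 87.4% of the 75-base stretches of Eif3j2 occur in other annotated transcripts. Neither passed, with -0.06 for Eif3j1 (0.04 under median-of-ratios scaling) and 0.11 for Eif3j2. Eif1 and Eif1b did not pass at the deposited scaling. With 2 libraries a group an exact permutation test cannot reach a two-sided p under 0.05, so the shares are given without a test. The shares rest on the merged exons of all annotated transcripts of each gene and may differ from shares of molecules.

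**Figure D3:**
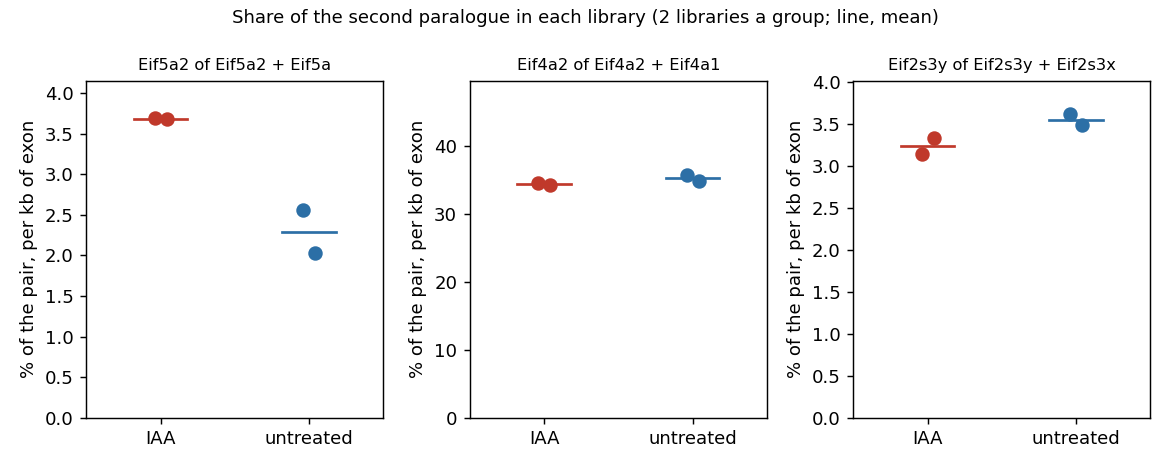
Share of the second paralogue in the summed level of its pair, per kb of exon, in each library (points) with the mean of the group (lines). Eif5a2 lies at 3.69% and 3.68% in IAA libraries and at 2.56% and 2.03% in untreated libraries, while Eif4a2 lies between 34.2% and 35.7% and Eif2s3y between 3.14% and 3.62% in all 4.

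Subunits of eIF3, the scaffold of the initiation complex on the small ribosomal subunit, fell by unequal amounts. Of 14 genes, 10 fell, none rose and 4 did not pass, with a median of -0.15. Of all genes tested 28.9% were lower, and 38.6% of those with a mean of at least 100. With median-of-ratios factors 5 fell and Eif3b rose. The steepest fall was that of Eif3m, with 1221 and 1237 normalised reads in IAA libraries and 1543 and 1623 in untreated libraries (log2 fold change -0.36, SE 0.05; limma adjusted p = 9.68e-06). Eif3f had 2379 and 2314 in IAA libraries and 2924 and 2982 in untreated libraries (-0.33, SE 0.04). Eif3i (-0.31), Eif3k (-0.27) and Eif3l (-0.22) followed, and these 5 are the subunits that also fell with median-of-ratios factors and in the authors' deposited table. Their groups did not overlap.

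Among other subunits of eIF3, Eif3a and Eif3c changed little, and Eif3b and Eif3g did not pass. Eif3a had 7205 and 7346 normalised reads in IAA libraries and 7638 and 7906 in untreated libraries (-0.10, SE 0.03; limma adjusted p = 0.0261), and with median-of-ratios factors the value was 0.01 and did not pass. Eif3c, its partner in the core, had 5218 and 5259 in IAA libraries and 5817 and 5578 in untreated libraries (-0.12, SE 0.04). Eif3b, which holds the peripheral module with Eif3g and Eif3i, had 4260 and 4341 in IAA libraries and 4136 and 4243 in untreated libraries (0.04, 95% interval -0.04 to 0.11). Eif3g, the RNA-binding subunit, had 1520 and 1473 in IAA libraries and 1406 and 1577 in untreated libraries (0.01, 95% interval -0.11 to 0.12). The 95% intervals of Eif3b and Eif3i (-0.41 to -0.21), which belong to 1 module, did not overlap, and this difference was not tested.

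The subunits between these ends fell at the deposited scaling only. Eif3h had 2834 and 2840 normalised reads in IAA libraries and 3069 and 3169 in untreated libraries (-0.14, SE 0.04). Its level per kb was the highest of eIF3, though several eIF3 genes, Eif3a among them, had more reads over longer merged exons. Eif3e, the neighbour of Eif3h in the complex, had 2911 and 2941 in IAA libraries and 3276 and 3305 in untreated libraries (-0.17, SE 0.04). Eif3d, which can bind the cap, had 1580 and 1433 in IAA libraries and 1742 and 1746 in untreated libraries (-0.21, SE 0.05). Calls of 4 subunits hung on single libraries, on unrounded values. Eif3a did not pass without IAA replicate 1 (limma adjusted p = 0.2), IAA replicate 2 (0.0727) or untreated replicate 2 (0.126). Eif3h did not pass without these same libraries (0.0578, 0.0529 and 0.0504), Eif3c without replicate 1 of IAA (0.0695) or of untreated cells (0.063), and Eif3d without IAA replicate 2 (0.0865). In a grouping chosen after the values were seen, the 8 subunits of the PCI and MPN core (a, c, e, f, h, k, l and m) all fell, and of the 6 other genes Eif3d and Eif3i fell. With median-of-ratios factors 4 of those 8 fell, and of the others Eif3i fell and Eif3b rose.

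**Figure D4:**
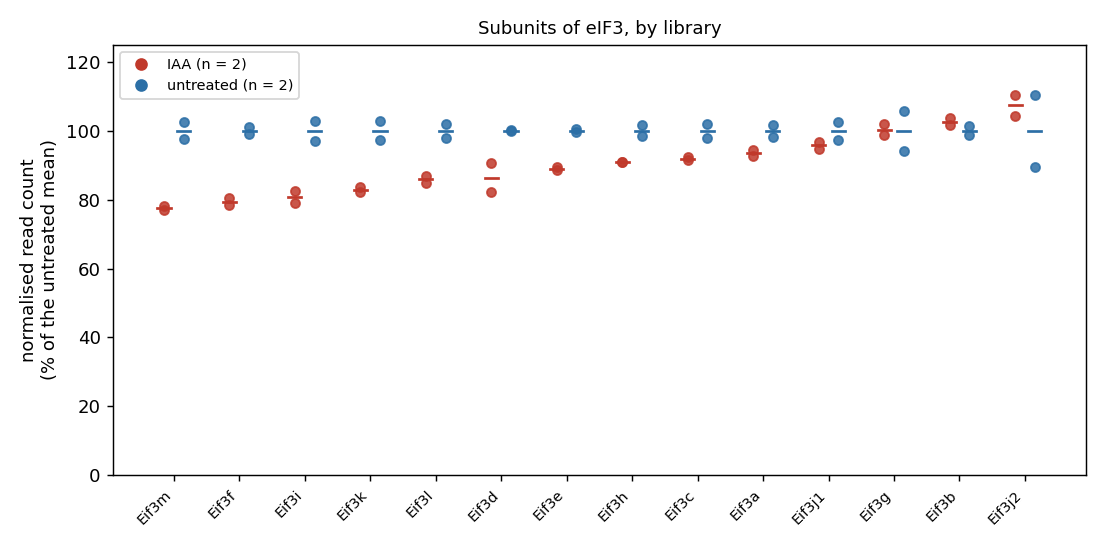
Normalised read counts of the eIF3 subunit genes in each library, as a percentage of the untreated mean of the gene (points, libraries; lines, means of 2), ordered by log2 fold change. Eif3m, Eif3f, Eif3i, Eif3k and Eif3l lie at 77.6% to 85.9% of the untreated mean in IAA cells, and Eif3b and Eif3g at 103% and 100.34%.

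The subunits of eIF2, which carries the initiator tRNA, were lower, while those of eIF2B, the factor that recharges eIF2 with GTP, were mixed. Eif2s2, the beta subunit, had 4018 and 4072 normalised reads in IAA libraries and 4952 and 5231 in untreated libraries (log2 fold change -0.33, SE 0.04; limma adjusted p = 9.32e-07), and it was the only subunit of eIF2 to stay lower with median-of-ratios factors. Eif2s1, the alpha subunit that stress kinases phosphorylate, had 2201 and 2163 in IAA libraries and 2509 and 2490 in untreated libraries (-0.20, SE 0.04). Eif2s3x, the gamma subunit, had 2231 and 2129 in IAA libraries and 2413 and 2514 in untreated libraries (-0.18, SE 0.04), and it did not pass without IAA replicate 2 (limma adjusted p = 0.0591, on unrounded values). In eIF2B, Eif2b5, the catalytic subunit, had 1860 and 1911 in IAA libraries and 2068 and 2215 in untreated libraries and fell (-0.18, SE 0.05), a call not kept with median-of-ratios factors. Eif2b5 had the highest level per kb of exon among the eIF2 and eIF2B genes. By reads alone it lay below Eif2s1, Eif2s2 and Eif2s3x, whose merged exons are longer (4951, 6755 and 3812 bases, against 2595).

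The other eIF2B subunits were called higher or not at all. Eif2b4, the delta subunit, had 594 and 559 normalised reads in IAA libraries and 477 and 534 in untreated libraries (0.19, SE 0.07; limma adjusted p = 0.0466). On unrounded values it did not pass without IAA replicate 1 (limma adjusted p = 0.247) or untreated replicate 1 (limma adjusted p = 0.346). Eif2b1 (0.10, SE 0.06) and Eif2b2 (0.15, SE 0.09) did not pass and were called higher, with Eif2b4, under median-of-ratios factors. Eif2b3 (-0.13, SE 0.07) did not pass under either scaling. Without untreated replicate 2, on unrounded values, Eif2b2 was called higher (0.28) and Eif2b3 lower (-0.23), and without IAA replicate 2 Eif2b2 was called higher (0.25).

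Among the factors of the cap-bound helicase complex, Eif4b, the cofactor that stimulates eIF4A, fell most. It had 8119 and 8029 normalised reads in IAA libraries and 9827 and 10000 in untreated libraries, with means of 8074 ± 63.6 in IAA cells and 9914 ± 122 in untreated cells (SD, n = 2 each; log2 fold change -0.30, SE 0.03; limma adjusted p = 3.13e-07). Eif4h, a cofactor of similar function, had 3468 and 3319 in IAA libraries and 3240 and 3443 in untreated libraries and did not pass (0.02, 95% interval -0.06 to 0.11). With median-of-ratios factors Eif4b stayed lower (-0.20) and Eif4h was called higher (0.12). Eif4a3, a relative of the helicases that works in the exon junction complex and not in initiation, rose. It had 1722 and 1701 in IAA libraries and 1480 and 1476 in untreated libraries (0.21, SE 0.05; limma adjusted p = 0.00128).

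Factors that select the start codon and join the subunits were mostly not called, with a fall and a rise at the ends. Of 9 genes, 2 fell, 1 rose and 6 did not pass, against 28.9% lower and 11.1% higher of all genes tested. Eif2a, an alternative carrier of initiator tRNA distinct from the alpha subunit of eIF2, had 1467 normalised reads in each IAA library and 1877 and 1894 in untreated libraries (log2 fold change -0.36, SE 0.05; limma adjusted p = 3.96e-06). Eif1ax, the X-linked gene of eIF1A, had 1415 and 1405 in IAA libraries and 1608 and 1677 in untreated libraries (-0.22, SE 0.05), whereas the autosomal Eif1a had 1841 and 1775 in IAA libraries and 1775 and 1840 in untreated libraries (0.00, 95% interval -0.10 to 0.10). Their 95% intervals, -0.32 to -0.12 for Eif1ax, did not overlap, and the difference was not tested. Eif5, the GTPase activator that acts on eIF2 at the start codon, had 3186 and 3198 in IAA libraries and 2736 and 2836 in untreated libraries and rose (0.20, SE 0.04; limma adjusted p = 0.000622).

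The remaining factors of this group gave small values. Eif1, the most abundant of them per kb and a guard of start codon accuracy, had 3633 and 3386 normalised reads in IAA libraries and 3192 and 3480 in untreated libraries (0.07, SE 0.05). Eif1b (0.08), Eif6, which keeps the ribosomal subunits apart (0.10), Eif5b, the subunit joining GTPase (-0.05, or 0.06 under median-of-ratios scaling), and Eif2d (-0.02, or 0.08) did not pass. With median-of-ratios factors Eif1 and Eif6 were called higher, and Eif1 also passed without untreated replicate 2 on unrounded values (0.14, limma adjusted p = 0.0113). The Eif1ad genes are relatives of eIF1A. Of these Eif1ad had 729 and 641 in IAA libraries and 626 and 609 in untreated libraries and did not pass (0.15, SE 0.07), though it passed as higher under median-of-ratios scaling and, on unrounded values, without IAA replicate 2 (0.24). Eif1ad7 and Eif1ad8 were read at 10 to 20 and the other Eif1ad genes at 5 or less in every library. Eif4a3l1 and Eif4a3l2, named as relatives of Eif4a3, were read at 1 to 6. Eef1e1, which belongs to the multi-tRNA synthetase complex, did not pass (0.08, SE 0.06), but passed as higher under median-of-ratios scaling.

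Levels per kb of exon spanned a wide range, and the direction of change went with them only loosely. Eef1a1 ranked 3 and Eef2 ranked 15 among the 14919 tested genes with an annotated exonic length, followed among the members by Eif5a (rank 43), Eef1g (47), Eif4a1 (96), Eef1b2 (129) and Eif4b (137). All 7 fell. Across the 55 members, which share the same 4 libraries, Spearman's rho between the level per kb and the log2 fold change was -0.23, against 0.07 across all these genes. The rho with the length of the gene was -0.15 for the members and -0.05 for all genes. Genes are not independent replicates, and these values are descriptions.

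**Figure D5:**
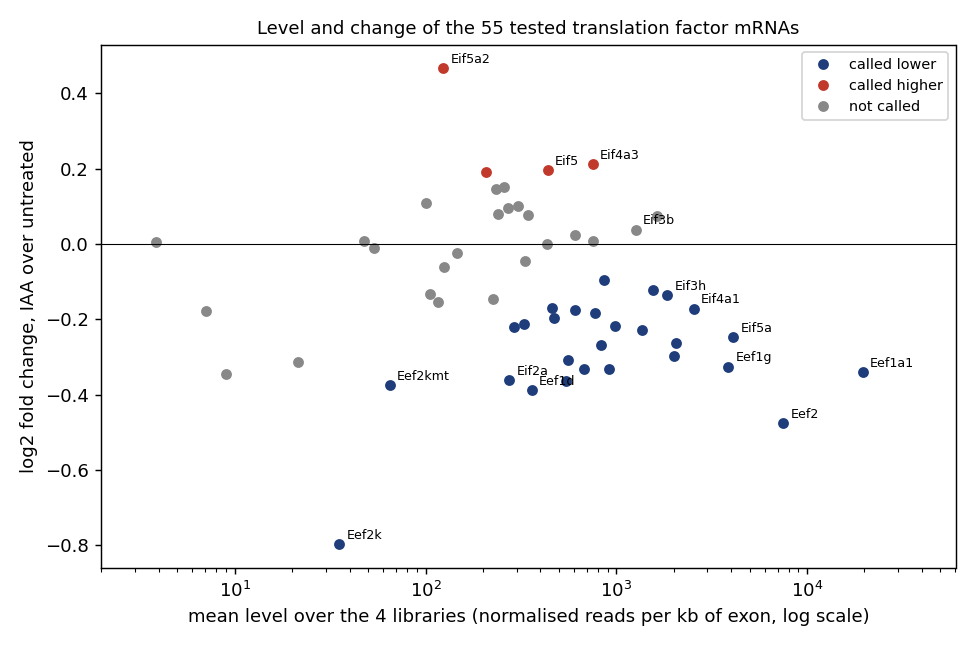
Mean level over the 4 libraries in normalised reads per kb of exon (log scale) against the log2 fold change of IAA over untreated cells, for the 55 members tested (points, coloured by call). The most abundant members, Eef1a1, Eef2, Eif5a and Eef1g, lie below 0, and Eif5a2, at 0.47, lies highest.

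A minority of the members hold snoRNA genes. In GENCODE M21, 6 of the 55 tested members have snoRNA genes within their bounds on their own strand, namely Eef1b2, Eef2, Eif3a, Eif4a1, Eif4a2 and Eif5. Of these 5 fell and Eif5 rose, with a median of -0.20. Among the 49 others 22 fell and 3 rose, with a median of -0.15. Of all genes tested 28.9% were lower and 11.1% higher, and 38.6% of those with a mean of at least 100 were lower. With median-of-ratios factors 4 of the 6 fell, against 18.6% of all genes. Eif4a2 holds the largest number, with 5 snoRNA genes, each of which also overlaps an annotated exon of Eif4a2.

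Other genes of translation, from lists that do not overlap the members, held more falls than rises at the deposited scaling, as did all genes tested. Of 61 genes tested, 29 fell and 7 rose, against 28.9% lower and 11.1% higher of all genes, and the median was -0.13, against -0.11. Under median-of-ratios scaling 17 fell and 12 rose, against 18.6% each way. Poly(A)-binding proteins and their partners had 4 of 5 lower, led by Pabpc1, itself a TOP mRNA, with 19636 and 20022 normalised reads in IAA libraries and 25526 and 24913 in untreated libraries (log2 fold change -0.35, SE 0.03; limma adjusted p = 6.01e-09), and Pabpc4 (-0.32). Cap-binding and scaffold genes had 3 lower and 2 higher of 9. With median-of-ratios factors these had 1 lower and 2 higher, and the poly(A) genes 3 lower and 1 higher. Eif4g3, a scaffold paralogue, had 1409 and 1472 in IAA libraries and 747 and 707 in untreated libraries (0.99, SE 0.06; limma adjusted p = 1.58e-10), and Eif4ebp1, an inhibitor of the cap-binding protein, fell (-0.33, SE 0.04). Helicases and other genes of scanning had 4 lower and 2 higher of 6, with Pdcd4, an inhibitor of eIF4A, at -0.49 and Dhx29 at -0.34. The helicases alone went both ways, with Dhx29 and Dhx36 (-0.33) lower and Ddx3x (0.24) and Dhx9 (0.16) higher. With median-of-ratios factors the list had 3 lower and 2 higher, and the calls of these helicases were kept.

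Genes acting on eIF2 and at later steps were mixed. Beside the counts below, 28.9% of all genes tested were lower and 11.1% higher, and 18.6% each way with median-of-ratios factors. For genes with a mean of at least 100 the shares at the deposited scaling were 38.6% and 15.5%. Of the eIF2 kinases and phosphatase subunits, Ppp1r15b, which directs phosphatase to eIF2, rose (0.33, SE 0.05) and Eif2ak4, the kinase that senses uncharged tRNA, fell (-0.30, SE 0.08), with 1 lower and 2 higher of 6. Termination and recycling genes had 4 lower and none higher of 9, and with median-of-ratios factors none lower and 2 higher. The largest called changes there were Mcts1 (-0.30) and Gspt1, the release factor GTPase (-0.18). Helpers of reinitiation and elongation had 4 lower and 1 higher of 6, with Gtpbp2, a ribosome rescue GTPase, at -0.41 and Eefsec, which delivers selenocysteine tRNA, at -0.30. These helpers had 3 lower and 1 higher under median-of-ratios scaling. Enzymes of hypusine and diphthamide synthesis had 3 lower and none higher of 9, Dhps and Dph5 (-0.46) among them. These enzymes had 3 lower and 1 higher under median-of-ratios scaling. Mitochondrial factors had 6 lower and none higher of 11, with Guf1 at -0.52 and Gfm2 at -0.32. With median-of-ratios factors they had 3 lower and 1 higher.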

How the data were processed

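The members and gene lists were chosen with earlier results of these data known. Per the submitters' processing notes, the tools were DESeq2, featureCounts, STAR, Bowtie2, SAMtools, deepTools and cutadapt 1.18, and the builds mm10 and dm6, with no role stated for any. Drosophila S2 cells served as spike-in per the labels. Neither annotation nor strand setting is given in the sources used here, so reads of overlapping antisense genes cannot be told apart. The authors deposited, for each library, a score per gene, which is the number of reads over that library's size factor (0.98 and 0.95 for IAA, 0.88 and 0.87 for untreated) after rounding, as worked out from the deposited mean, which is a signal. Whether the factors came from the spike-in is not stated. Whole reads were recovered for 100% of genes (tolerance 0.001). The authors also deposited log2 fold changes, a Wald statistic score and p-values.

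The deposited values are scaled and rounded, so no count test was run. Genes with a mean of at least 10 (14928 of 30282) entered limma 3.58.1 (R 4.3.3) as log2(value + 1), with an empirical Bayes trend and Benjamini-Hochberg adjustment over all of them. Fold changes on this scale understate changes of low genes. The fit was tested on simulated data. Calls needed an adjusted p below 0.05. Every member could be named. Members with values per library were the most abundant, the steepest fall and rise of each group, the paralogues and the TOP mRNAs; others are given as well to account for each member. Of other lists, up to 2 called genes with the largest change were named, apart from Dohh and the list of scanning, where more are given. Exonic lengths and overlaps come from GENCODE M21 on GRCm38, in which 30214 of the gene IDs matched. The exonic length of a gene is that of the exons of all its annotated transcripts, merged. It can differ from the length of the transcripts present, so levels and shares per kb are not counts of molecules. Stretches of 75 bases were compared between annotated transcripts; the read length is not given in the sources used here. Replicates differed by slightly more than counting noise (mean chi-square per gene 1.24 for IAA and 1.41 for untreated libraries, against 9.49 to 9.96 between groups).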

Additional observations from a re-analysis of the deposited data

How the results depend on the processing

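Pseudocounts of 0.5 and 5, a threshold of 0.1, unrounded values and limma's voom on recovered reads left the calls of all 55 members tested as reported, and a mean of at least 100 those of the 50 still tested. A threshold of 0.01 dropped 4 member calls and reduced the genes called higher to 1037. Scaling moved most values. With median-of-ratios factors 12 members were higher and the member median was -0.0566, all genes were 2779 lower and 2773 higher with a median of -0.0074, the other translation genes were 17 lower and 12 higher, and Eif3a had 0.01 (0.0058). With library totals members were 17 lower and 12 higher with a median of -0.0452, all genes 2721 lower and 2828 higher with a median of -0.0023, the other translation genes 16 lower and 12 higher, and Eif3a 0.01 (0.0095). In the authors' deposited table members were 16 lower and 1 higher, all genes 1100 lower and 284 higher, and the other translation genes 7 lower and 4 higher. With no filter on low values members were 6 lower and 0 higher, all genes 638 lower and 179 higher, and the other translation genes 3 lower and 1 higher; on unrounded values, an alternative chosen after seeing the data, all genes were 1919 lower and 623 higher and the other translation genes 16 lower.

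Leaving out 1 library gave between 0 and 26 members lower and 0 and 6 higher, between 0 and 3939 genes lower and 0 and 1608 higher, and between 0 and 30 of the other translation genes lower and 0 and 7 higher. The lowest of these counts were found on the rounded values only, where at least 361 genes have equal values in the intact group. The fitted prior spread was not examined, and the cause was not tested. On unrounded values, a choice made after seeing the data, the members were 22 to 26 lower and 3 to 6 higher. In such fits the spread of the lone library is taken from the intact group. Deviations of libraries with the same replicate number in the titles were not correlated across genes (0.0015 over 2 pairs). Replicates differed by little more than counting noise, so this value cannot show whether the numbers pair the libraries. With the number as a replicate block, 26 members were lower and 4 higher, Eif3a being the call not kept. The run of pyrimidines at member starts, 2 at the start itself, was found in 20 members within 20 bases (45.5%, against 53.3% of all genes), and in 15 with a run of at least 7 (34.1%, against 24.0%).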

Other observations

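Rows named as pseudogenes of translation factors, which the rule left out, were read at low levels. Eef1a1-ps1 had 40 and 51 normalised reads in IAA libraries and 73 and 84 in untreated libraries (log2 fold change -0.78, SE 0.20; limma adjusted p = 0.00356), and Eef2-ps2 had 2 and 9 in IAA libraries and 17 and 15 in untreated libraries (-1.63, SE 0.53; limma adjusted p = 0.0192). Both fell in the direction of their parent genes, whose counts were far higher, and whether their reads come from the parent transcripts was not tested. Eif3s6-ps2 was read at 9 and 7 in IAA libraries and at 9 and 6 in untreated libraries. Of the 64 members, 18 share over 10% of their 75-base stretches with other annotated transcripts, 28 share none, and the rest lie between.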
